A study of Mus musculus with 22 samples.

Results

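The 40 genes described here encode proteins that copy the DNA in S phase, prepare the cell for division in G2 and carry out mitosis, and they were taken by name from a list set by their function, out of 47729 genes counted in mouse liver. They comprise 8 genes of replication licensing (Cdc6, Cdt1 and Mcm2 to Mcm7), 5 of DNA synthesis and nucleotide supply (Pcna, Rrm1, Rrm2, Tyms, Tk1), 4 of the entry into S phase (Ccnd1, Ccne1, Ccne2, E2f1), 8 cyclins, kinases and regulators of G2 and mitosis (Cdk1, Ccna2, Ccnb1, Ccnb2, Foxm1, Plk1, Aurka, Aurkb), 4 of the spindle checkpoint and anaphase (Bub1, Bub1b, Cdc20, Ube2c), 10 of the spindle, kinetochore, chromosomes and cytokinesis (Mki67, Top2a, Kif11, Kif20a, Birc5, Cenpe, Cenpf, Tpx2, Nusap1, Prc1) and 1 inhibitor of cyclin-dependent kinases (Cdkn1a). Poly(A) RNA was sequenced from the livers of male C57BL/6 mice that were Slc10a1-/- (KO) or wild type (WT). Slc10a1 encodes NTCP, which carries conjugated bile acids from blood to liver cells. Mice were aged 4 weeks (3 KO, 3 WT), 8 weeks (6 KO, 4 WT) and 20 months (3 KO, 3 WT), 1 library per liver and 22 in all. The labels name no treatment, and nothing on litters, cages or how the Slc10a1 allele was made, so p-values measure the spread between these samples.

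Cells commit to division in G1, when cyclin D and cyclin E kinases release the E2F factors that switch on the genes of DNA replication. The genes of G2 and mitosis are switched on later by the MuvB complex with B-Myb and by FOXM1, and p21, the product of Cdkn1a and a target of p53, holds the cyclin-dependent kinases back. Hepatocytes of an adult liver are mostly quiescent but can re-enter the cycle, and the liver of a young mouse is still growing.

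Promoter letters differed between the S phase genes and those of G2 and mitosis in the CHR element and the E2F-like site described below, and 4 promoters are shown. The windows are those of RefSeq on GRCm38.p6, 250 bases before to 50 bases after an annotated start, printed 5′ to 3′ in the direction of the gene. Capitals mark 3 motifs searched on both strands: the CHR element TTTGAA, to which MuvB binds, the box CCAAT, to which NF-Y binds, and the E2F-like site GCGGGAA. Read on the opposite strand, the CHR element is TTCAAA. The box then reads ATTGG. The E2F-like site becomes TTCCCGC there, and no motif overlaps another in the 4 windows shown. Cdk1 (chr10:69352863-69353162, minus strand) and Mki67 (chr7:135716330-135716629, minus strand) represent mitosis, Mcm3 (chr1:20820263-20820562, minus strand) represents replication, and Tk1 (chr11:117825965-117826264, minus strand) is shown because it is the member that passed the threshold between KO and WT livers at 4 weeks.
Cdk1: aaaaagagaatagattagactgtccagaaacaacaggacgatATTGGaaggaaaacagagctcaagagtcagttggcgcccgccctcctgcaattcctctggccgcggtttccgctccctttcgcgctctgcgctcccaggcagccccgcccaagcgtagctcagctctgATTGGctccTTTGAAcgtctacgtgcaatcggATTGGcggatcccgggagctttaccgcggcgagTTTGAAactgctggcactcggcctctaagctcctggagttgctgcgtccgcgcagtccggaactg
Mki67: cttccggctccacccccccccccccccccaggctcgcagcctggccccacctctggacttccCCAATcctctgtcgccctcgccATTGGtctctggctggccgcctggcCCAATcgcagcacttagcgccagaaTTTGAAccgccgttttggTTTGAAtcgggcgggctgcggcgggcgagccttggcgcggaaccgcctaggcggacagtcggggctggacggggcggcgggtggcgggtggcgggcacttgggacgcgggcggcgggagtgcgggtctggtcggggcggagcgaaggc
Mcm3: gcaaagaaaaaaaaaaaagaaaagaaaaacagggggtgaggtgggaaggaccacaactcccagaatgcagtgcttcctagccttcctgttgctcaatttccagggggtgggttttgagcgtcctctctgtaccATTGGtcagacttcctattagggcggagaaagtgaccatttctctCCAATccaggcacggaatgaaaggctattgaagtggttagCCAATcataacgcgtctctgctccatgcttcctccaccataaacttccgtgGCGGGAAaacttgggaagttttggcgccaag
Tk1: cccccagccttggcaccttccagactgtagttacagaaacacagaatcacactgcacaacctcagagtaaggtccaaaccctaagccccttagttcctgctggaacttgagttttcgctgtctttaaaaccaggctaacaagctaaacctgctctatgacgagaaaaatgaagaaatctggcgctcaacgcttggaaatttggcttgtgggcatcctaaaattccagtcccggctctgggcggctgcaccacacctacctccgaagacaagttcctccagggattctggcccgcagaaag
The Cdk1 and Mki67 windows each held 2 CHR elements and 3 CCAAT boxes. The Mcm3 window held 3 CCAAT boxes and 1 E2F-like site, and none of the 3 motifs was found in the Tk1 window. Over the members, 32 of 40 genes matched a RefSeq entry, with 35 windows. The CHR element was in 72.2% of the 18 windows of G2 and mitosis genes, in 7.7% of the 13 windows of S phase genes and in 17.9% of all 32851 mouse promoter windows. A CCAAT box, with or without a CHR element, was in 88.9%, 69.2% and 37.4% of these windows. A CHR element together with a CCAAT box was in 72.2%, 7.7% and 7.0%. The E2F-like site was in 0%, 46.2% and 4.6%. A match describes letters in the window and is not evidence of binding.

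The reads counted in genes ranged between 5496425 and 6956124 a library at 4 weeks, between 18950112 and 26066897 at 8 weeks, and between 18032355 and 26789350 at 20 months. Values are CPM (counts relative to a TMM-scaled library total) over the 22 libraries, and 3 counts, the limit that a count of 0 allows, correspond to 0.478 to 0.640 CPM at 4 weeks and 0.103 to 0.167 CPM at the later ages (counting error only). Slc10a1 itself was at 108 to 253 CPM in KO livers and 591 to 701 CPM in WT livers at 4 weeks, at 49.4 to 93.8 CPM in KO and 435 to 470 CPM in WT livers at 8 weeks, and at 92.3 to 103 CPM in KO and 154 to 370 CPM in WT livers at 20 months, without overlap at any age but above 0 in each KO library. Hepatocyte markers (Alb, Ttr, Apoa1 and others) summed to between 47200 and 190900 CPM in each of the 22 libraries. The lowest sum was that of WT library 1 of 20 months, against 70650 and 82900 CPM in the other WT livers of that age. KO library 1 of 4 weeks held 70360 CPM, against 155000 and 186900 CPM in the other KO livers of that age. The highest sum was that of KO library 1 of 8 weeks. The part of this spread in the cell cycle values was not tested. The files mark the libraries of 4 weeks as paired reads and those of the later ages as single reads, and the libraries of 8 weeks carry another run tag than those of 4 weeks and 20 months. Age therefore cannot be told apart from library type or run tag in the steps between 8 weeks and the other ages. Exon bases are shared with a gene on the opposite strand by 11 members. Among them are Kif20a (977 bases, Cdc23), Ccnd1 (818, LTO1), Prc1 (670, Rccd1), Ccne2 (474, Ints8), Ccna2 (428, Exosc9), Nusap1 (172, Oip5), Tk1 (83, Afmid) and Cdc20 (53, Elovl1). The strand setting of the counting is not given in the sources used here, so reads of such pairs cannot be told apart.

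The G2 and mitosis genes were low in WT liver, and the genes of DNA synthesis were higher. Per kilobase of exon, Pcna (the sliding clamp of DNA polymerase) averaged 4.83 CPM and Tk1 (thymidine kinase) 4.93 CPM in WT livers of 8 weeks, against 0.808 for Mki67, 0.528 for Top2a and 0.282 for Cdk1. Summed over the 22 G2 and mitosis genes, a library held 8.06 to 303.2 CPM, while the 13 genes of licensing and DNA synthesis held 88.4 to 246.6 CPM. The G2 and mitosis genes therefore ranged more widely between livers. The map of all members by library shows most of that range in 5 libraries: KO libraries 1 and 3 of 4 weeks on the low side, and KO libraries 1 and 2 of 8 weeks and WT library 1 of 20 months on the high side.

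**Figure D1:**
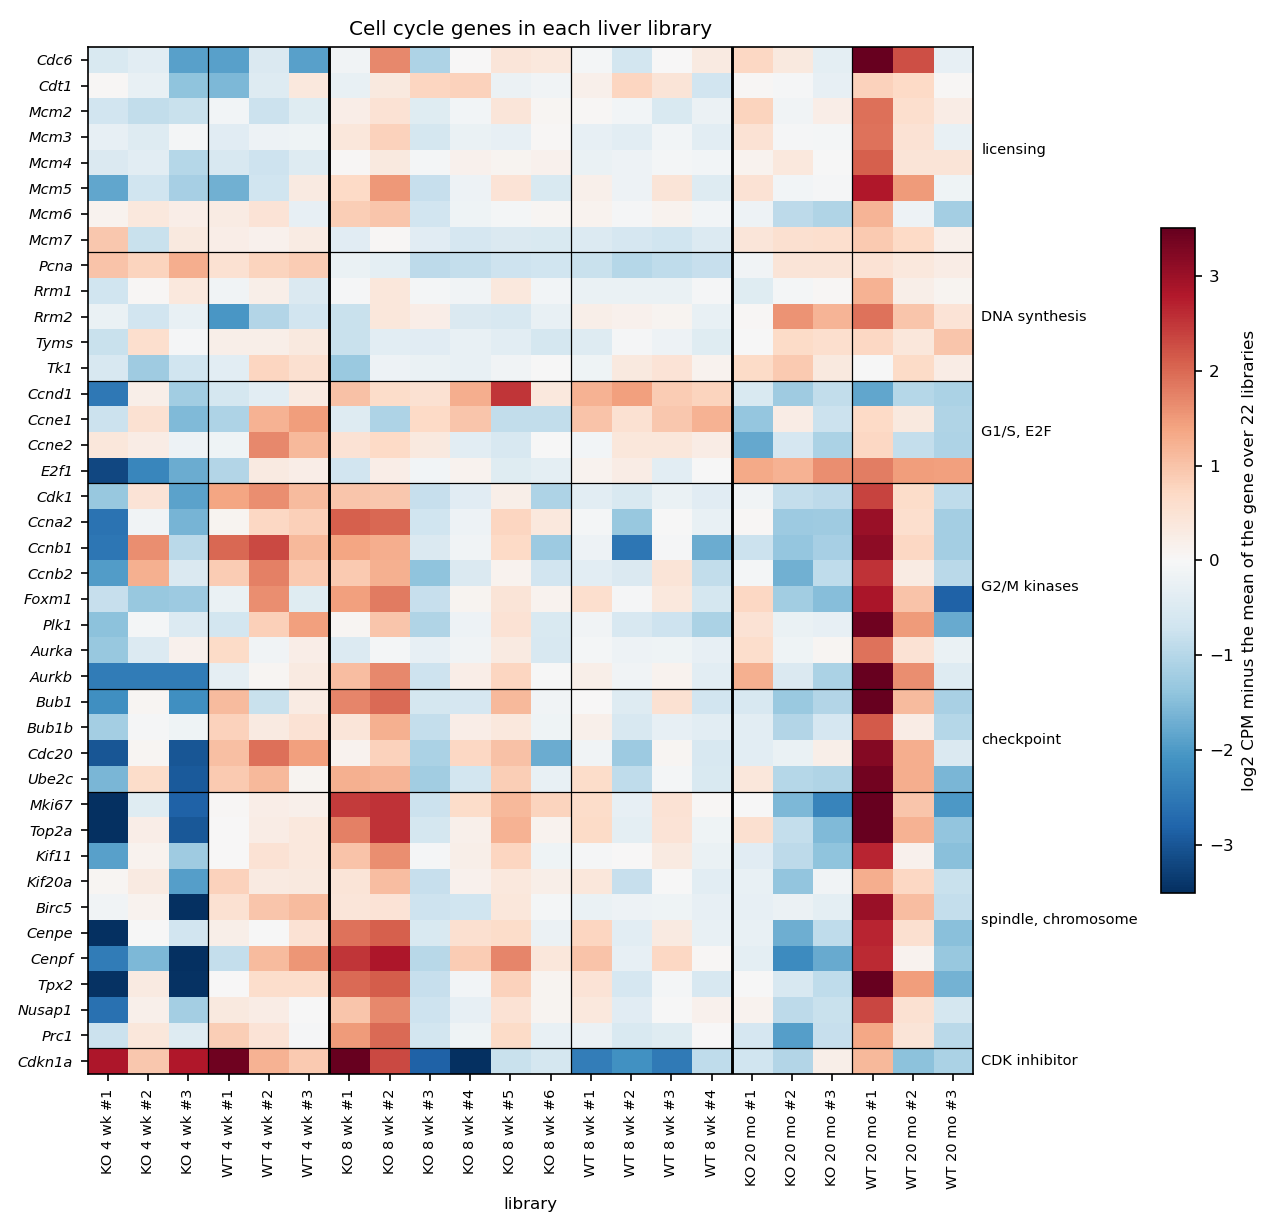
Level of each of the 40 genes (rows, grouped by role) in each of the 22 libraries (columns, KO before WT within each age), as log2 CPM minus the gene's mean over the 22 libraries. The G2 and mitosis rows are low together in KO libraries 1 and 3 of 4 weeks and high together in KO libraries 1 and 2 of 8 weeks and WT library 1 of 20 months.

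At 4 weeks, 1 member passed the threshold between KO and WT livers (adjusted p under 0.05, edgeR quasi-likelihood test, Benjamini-Hochberg over all genes), where 10.8% of all genes tested did, 5.17% higher and 5.6% lower in KO livers. It was Tk1 (ENSMUSG00000025574, chr11:117815526-117826092, minus strand), which salvages thymidine for DNA synthesis. Its exons share 83 bases with Afmid on the opposite strand, so its counts may include reads of that gene. Tk1 stood at 14.8, 9.25 and 13.7 CPM in KO livers, against 17.1, 37.4 and 32.6 CPM in WT livers. Every KO library lay below every WT library, as for 19.8% of the genes tested, and the gap between KO library 1 and WT library 1 was small. Tk1 fell (log2 fold change -1.17 ± 0.31, SE; adjusted p = 0.0481, edgeR). Over 11 alternative settings its log2 fold change was -1.43 to -0.95 and its adjusted p 0.00136 to 0.181, under the threshold in 6 of them.

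Among the G2 and mitosis genes at 4 weeks, KO libraries 1 and 3 were, as a block, far below the WT libraries and KO library 2 was nearer to them. Mki67, the marker of cycling cells that coats mitotic chromosomes, was at 0.504, 5.03 and 0.854 CPM in KO livers, against 6.89, 7.9 and 7.64 CPM in WT livers. Cdk1, the kinase that drives mitosis, was at 0.672, 2.62 and 0.427 CPM in KO livers, against 5.03, 5.97 and 4.14 CPM in WT livers. For both genes all KO libraries were below all WT libraries, but neither passed the threshold: Mki67 had a log2 fold change of -1.79 ± 0.64 (adjusted p = 0.108, edgeR) and Cdk1 of -1.98 ± 0.55 (adjusted p = 0.053). Among the 23 members tested, 5 were lower in this way without overlap, close to the 19.8% of all genes tested. Top2a, the topoisomerase that untangles chromosomes, was at 0, 4.83 and 0.427 CPM in KO livers, against 4.096, 4.92 and 5.25 CPM in WT livers. There the groups overlapped through KO library 2 (log2 fold change -1.43 ± 0.89, adjusted p = 0.32). Bub1b, the checkpoint kinase BubR1, was at 0.672, 1.61 and 1.49 CPM in KO livers, against 2.98, 2.11 and 2.39 CPM in WT livers, without overlap (-0.96 ± 0.43, adjusted p = 0.18).

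The filter on low counts was passed by 23 of the 40 members at 4 weeks, and the 17 left out were Cdc6, Mcm5, E2f1 and 14 of the 22 G2 and mitosis genes. Ccna2, cyclin A, was at 0.168, 1.41 and 0.427 CPM in KO livers, against 1.68, 2.63 and 2.87 CPM in WT livers. Ccnb1, cyclin B, was at 0, 1.81 and 0.213 CPM in KO livers, against 2.42, 2.98 and 1.27 CPM in WT livers. For cyclin A the KO values were all below the WT values, as for 19.8% of all genes tested, and for cyclin B KO library 2 lay among the WT libraries. Cdc20, which activates the anaphase-promoting complex, was at 0, 0.804 and 0 CPM in KO livers, against 1.68, 3.16 and 2.23 CPM in WT livers. Foxm1 was at 0.336, 0.201 and 0.213 CPM in KO livers, against 0.558, 2.28 and 0.477 CPM in WT livers, all KO values being at or under 3 counts. The kinase gene Aurkb had 0 counts in all 3 KO libraries, against 0.372, 0.527 and 0.637 CPM in WT livers, which is also near the limit of detection. In number of the 22 G2 and mitosis genes, KO libraries 1, 2 and 3 had 7, 1 and 7 without a count, against 0 in each WT library.

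Without that filter all 40 members were tested, and 7 passed the threshold, all lower in KO livers, where 4.78% of all genes were called lower: Cenpf (log2 fold change -3.65, adjusted p = 0.000238), Tk1 (-1.16, 0.00136), Cdk1 (-1.97, 0.00175), Mki67 (-1.78, 0.00176), Cdc20 (-3.03, 0.00263), E2f1 (-2.47, 0.00798) and Ccna2 (-1.80, 0.0469), by the same edgeR test. Cenpf had 0 counts in a KO library, so the size of its fold is uncertain. DESeq2 called 4 of 37 lower (Cenpf, Tk1, Cdk1 and Cdc20), against 5.39% of all genes. With KO library 2 left out, edgeR called 6 of 29 members lower (Mki67, Cdk1, Top2a, Cdc20, Ccna2 and Ccnb1), against 4.53% of all genes. With WT library 2, WT library 3 or KO library 3 left out it called 0, and 1.04% to 1.92% of all genes were called lower. The number of calls at this age thus depended on which livers entered the comparison.

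As a block, the S phase genes did not share the low values of KO libraries 1 and 3. Pcna was at 42.7, 36.2 and 50.8 CPM in KO livers, against 30.9, 36.2 and 39.5 CPM in WT livers (log2 fold change 0.32 ± 0.20, adjusted p = 0.321, edgeR). Rrm2, the regulated subunit of ribonucleotide reductase, was at 7.39, 5.43 and 7.26 CPM in KO livers, against 2.05, 4.21 and 5.41 CPM in WT livers (0.81 ± 0.36, adjusted p = 0.177). Every Rrm2 value of the KO livers was above every WT value, as for 15.8% of the genes tested. Mcm2, a subunit of the replicative helicase, was at 1.85, 1.61 and 1.71 CPM in KO livers, against 2.79, 1.76 and 2.23 CPM in WT livers (-0.34 ± 0.36, adjusted p = 0.57), with overlapping groups. As mean log2 CPM, the 22 G2 and mitosis genes differed by -1.90 between KO and WT livers and the 13 S phase genes by -0.06, given as a description with no test.

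Of the genes of S phase entry, E2f1 was lower without overlap in KO livers at 4 weeks and the 3 cyclins overlapped. Of all genes tested, 19.8% were also lower without overlap. E2f1, the transcription factor of replication genes, was at 0.168, 0.402 and 0.6405 CPM in KO livers, against 1.12, 2.98 and 2.87 CPM in WT livers, without overlap and with KO values near the limit that a count of 0 allows. Ccne1, cyclin E1, was at 1.18, 3.02 and 0.6405 CPM in KO livers, against 0.931, 4.92 and 5.89 CPM in WT livers (-1.24 ± 0.70, adjusted p = 0.273, edgeR). Ccnd1, cyclin D1, was at 1.68, 11.7 and 4.27 CPM in KO livers, against 6.52, 7.72 and 12.4 CPM in WT livers (-0.57 ± 0.58, adjusted p = 0.552). Ccne2, cyclin E2, was at 3.53, 3.22 and 2.35 CPM in KO livers, against 2.42, 8.78 and 6.05 CPM in WT livers (-0.87 ± 0.46, adjusted p = 0.241). Cdkn1a was at 114, 30.2 and 111 CPM in KO livers, against 167, 36.7 and 30.1 CPM in WT livers. KO libraries 1 and 3 and WT library 1 were high, and the groups overlapped (0.15 ± 0.69, adjusted p = 0.909).

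**Figure D2:**
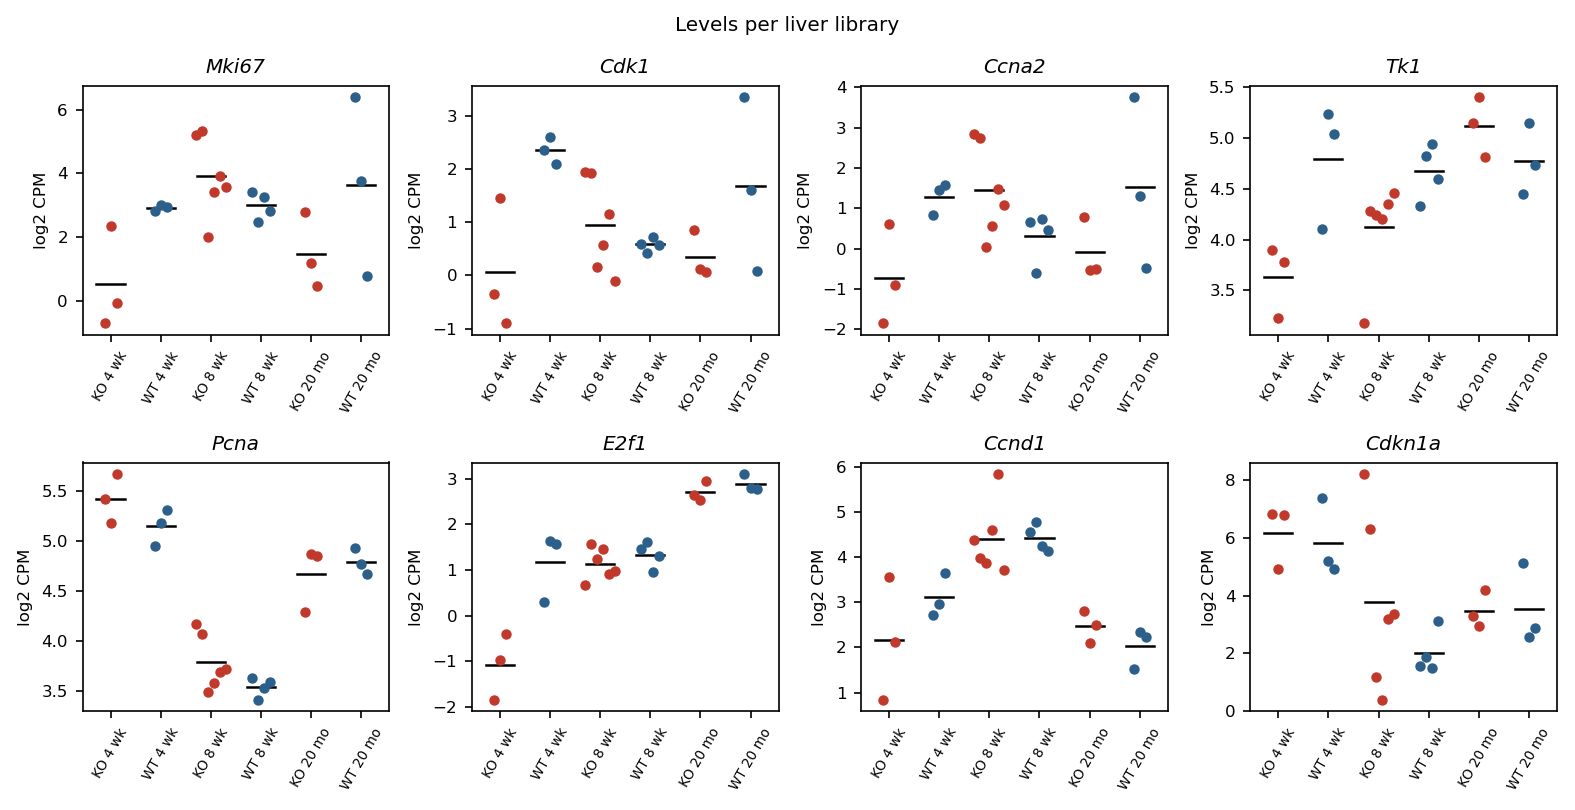
Log2 CPM of 8 members in every library, with bars at the group means, KO (red) left of WT (blue) at each age. Mki67, Cdk1 and Ccna2 show 2 low KO libraries at 4 weeks, 2 high KO libraries at 8 weeks and 1 high WT library at 20 months. Pcna is highest at 4 weeks and lowest at 8 weeks in both genotypes, where age cannot be told apart from library type or run tag.

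Markers of other cells also differed at 4 weeks. The 12 lymphocyte markers (Cd79a, Ms4a1 and others) summed to 2.69, 5.23 and 5.34 CPM in KO livers, against 10.6, 12.6 and 10.03 CPM in WT livers. Cd3e went the other way, at 1.34, 0.402 and 1.49 CPM in KO livers, against 0.559, 0 and 0.477 CPM in WT livers. None of the 12 passed the low-count filter, and Cd79b, Cd3d, Cd4, Lck and Nkg7 were at 0 in KO library 1. Among 9 erythroid markers, 6 were tested and 4 fell in KO livers (Alas2, Hba-a1, Hba-a2 and Hbb-bs) while Klf1 rose, and their sum was 160.5 to 212.6 CPM in KO livers and 354.8 to 492.8 CPM in WT livers. Of the 11 macrophage markers, Clec4f, Csf1r and Timd4 fell in KO livers and Marco rose, with sums of 486.5 to 691.3 CPM in KO livers and 760.3 to 933.6 CPM in WT livers. Of 9 endothelial markers, Cdh5, Clec4g and Flt4 fell, with sums of 256.2 to 331.3 CPM in KO livers and 393.2 to 497.3 CPM in WT livers. Stab1 and Pecam1 were lower without overlap. Stab2 overlapped, at 84.3, 57.3 and 82.2 CPM in KO livers, against 61.2, 63.6 and 73.1 CPM in WT livers, as did Kdr, Lyve1 and Oit3. Over all genes tested at this age, 5.6% fell and 5.17% rose. The part of these cells in the cell cycle values was not tested, and in whole liver fewer cells of a type and less RNA per cell cannot be told apart.

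In a wider list of cell cycle genes, 66 were tested at 4 weeks. In KO livers 4 rose and 6 fell, where 5.17% and 5.6% of all genes tested did. The 4 that rose were Myc (log2 fold change 2.11), Blm, Brca1 and Gins1, and the 6 that fell included E2f8 (-4.39), Spc25 (-3.02), Nek2 (-2.41) and Stmn1 (-1.14). Spc25 is a kinetochore subunit, and E2f8 a repressor of the E2F family. Of 14 p53 target genes tested, Btg2, an inhibitor of proliferation, rose (3.13) and Bax, which promotes cell death, fell (-0.95).

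At 8 weeks no member passed the threshold (0 of 39 tested, edgeR), where 0.0275% of all genes did. DESeq2 also called 0, and 6 members had an unadjusted p under 0.05, beside 10.4% of all genes. The fitted change was above 0 for 33 of the 39 members, with a median of 0.55 on the log2 scale, against 52.6% of all genes and a median of 0.02. All 22 genes of G2 and mitosis had values above 0. In licensing 7 of 7 did, in DNA synthesis 2 of 5, and in S phase entry 1 of 4.

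The 6 KO livers of 8 weeks were not alike, and libraries 1 and 2 were the highest for most mitotic genes. Mki67 was at 3.94 to 39.8 CPM with a median of 13.3 in KO livers, against 10.52, 5.501, 9.55 and 6.93 CPM in WT livers. KO libraries 1 and 2 held 37.0 and 39.8 CPM, KO libraries 4, 5 and 6 were a little above the WT range, and KO library 3 was below it. The log2 fold change was 1.30 ± 0.58 (adjusted p = 0.474, edgeR). Ccna2 was at 0.921 to 6.99 CPM with a median of 2.35 in KO livers, against 1.47, 0.545, 1.54 and 1.27 CPM in WT livers (1.51 ± 0.61, adjusted p = 0.474). Top2a was at 2.597 to 23.9 CPM with a median of 7.17 in KO livers, against 6.51, 3.17, 5.67 and 3.68 CPM in WT livers (1.08 ± 0.59, adjusted p = 0.505). The lowest KO library lay inside the WT range for Ccna2 and under it for Top2a.

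Cdk1, Ccnb1, Bub1 and Foxm1 were also highest in KO libraries 1 and 2. Cdk1 was at 0.823 to 3.73 CPM with a median of 1.75 in KO livers, against 1.41, 1.24, 1.54 and 1.39 CPM in WT livers (0.62 ± 0.44, adjusted p = 0.572, edgeR). Ccnb1 was at 0.1496 to 1.52 CPM with a median of 0.6904 in KO livers, against 0.446, 0, 0.497 and 0.0792 CPM in WT livers (1.60 ± 0.82, adjusted p = 0.494). For both, KO library 5 was also above the WT range, and KO libraries 3, 4 and 6 were within or below it. Bub1, a kinase of the spindle checkpoint, was at 0.209 to 1.82 CPM with a median of 0.645 in KO livers, against 0.377, 0.248, 0.597 and 0.198 CPM in WT livers (1.25 ± 0.70, adjusted p = 0.516). Foxm1 was at 0.335 to 2.67 CPM with a median of 0.851 in KO livers, against 1.06, 0.644, 0.895 and 0.396 CPM in WT livers (0.73 ± 0.55, adjusted p = 0.59). The highest value of Bub1 and of Foxm1 was that of KO library 2.

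Counted by library, KO library 1 was above all 4 WT libraries for 31 of the 40 members (77.5%, against 38.1% of all genes), KO library 2 for 34 (85%, against 31.6%) and KO library 5 for 26 (65%, against 28.7%). KO library 3 was below all 4 WT libraries for 23 (57.5%, against 20.5%). With KO libraries 1 and 2 both left out, an alternative chosen after seeing the data, 25 of 38 members had a fitted change above 0, 0 passed the threshold, and the log2 fold change of Mki67 was 0.35. The value of Cdk1 was then -0.07, against 0.62 with all libraries.

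Cdkn1a had the widest range of any member in KO livers of 8 weeks. Its values there were 297, 78.3, 2.14, 1.197, 9.06 and 10.2 CPM, against 2.84, 3.52, 2.73 and 8.48 CPM in WT livers. KO library 1 was highest and KO library 2 next, and KO libraries 3 and 4 were below every WT library. The log2 fold change of 3.94 ± 1.53 did not pass the threshold (adjusted p = 0.474, edgeR) and was 0.41 without KO libraries 1 and 2. Of 16 p53 target genes tested, 0 passed the threshold by edgeR and 1 had an unadjusted p under 0.05, beside 10.4% of all genes. Trp53inp1 and Btg2 were at 1914 and 345 CPM in KO library 1 and at 326 and 89.5 CPM in KO library 2. Mdm2, which p53 also induces, was at 49.0 and 28 CPM in these libraries, against 34.0 to 40.8 CPM in WT livers, and so was not high in both.

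Members of S phase and S phase entry differed in both directions at 8 weeks. Tk1 was at 8.94 to 21.9 CPM with a median of 19.1 in KO livers, against 19.9, 28.1, 30.5 and 24.0 CPM in WT livers (-0.49 ± 0.22, adjusted p = 0.476, edgeR). Mcm4 was at 4.98 to 6.72 CPM with a median of 5.71 in KO livers, against 4.42, 4.66, 4.97 and 4.91 CPM in WT livers. Each of the 6 KO libraries was just above the 4 WT libraries, the only member without overlap in that direction (1 of 39, against 1.19% of all genes), by a log2 fold change of 0.30 ± 0.12 (adjusted p = 0.474). Ccne1 was at 0.9305 to 4.15 CPM with a median of 1.28 in KO livers, against 4.21, 3.02, 4.08 and 4.99 CPM in WT livers (-1.02 ± 0.42, adjusted p = 0.474). Its groups overlapped through KO libraries 3 and 4. Pcna, at 11.2 to 18.0 CPM with a median of 12.96 in KO livers against 12.3, 10.6, 11.4 and 12 CPM in WT livers, was highest in KO libraries 1 and 2. E2f1 overlapped throughout, at 1.47 to 2.83 CPM with a median of 2.07 in KO livers, against 2.64, 2.92, 1.84 and 2.38 CPM in WT livers. Ccnd1 was at 12.98 to 57.3 CPM with a median of 18.2 in KO livers, against 23.3, 27.3, 18.8 and 17.4 CPM in WT livers, and KO library 5 was the high one. Mcm2, at 2.22 to 4.31 CPM with a median of 3.36 in KO livers against 3.12, 2.83, 2.04 and 2.58 CPM in WT livers, and Rrm2, at 5.04 to 11.6 CPM with a median of 6.68 in KO livers against 9.97, 9.71, 9.299 and 7.25 CPM in WT livers, overlapped as well.

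**Figure D3:**
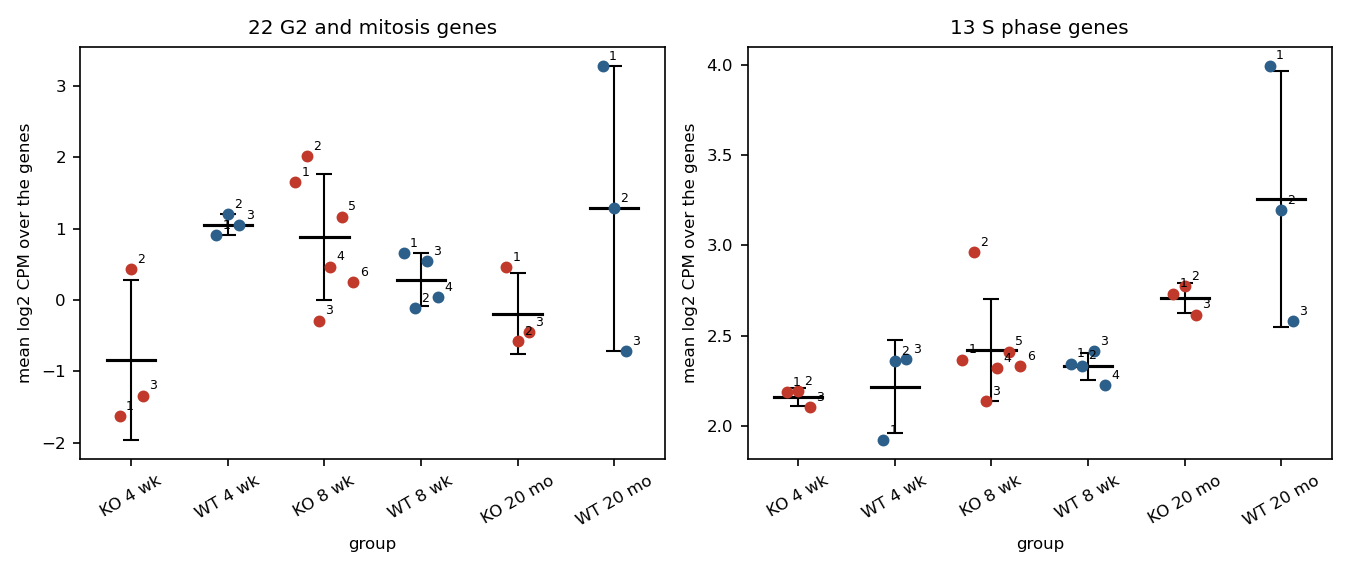
Mean log2 CPM of the 22 G2 and mitosis genes (left) and of the 13 licensing and DNA synthesis genes (right) in each library, KO (red) left of WT (blue), with the group mean ± SD and the replicate number beside each point. The G2 and mitosis genes had the larger SD in 5 of the 6 groups, with 2.001 against 0.7095 in WT livers of 20 months, and the smaller one in WT livers of 4 weeks (0.146 against 0.256).

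Macrophage markers were high in some of the same KO livers. Their sum was 1003, 940.3, 406.2, 406.3, 805.9 and 884.6 CPM in KO livers, against 598.2, 461.5, 437.3 and 517.5 CPM in WT livers, and KO libraries 1, 2, 5 and 6 were above every WT library. All 11 macrophage markers were tested and 0 passed the threshold by edgeR, none being at 0 in any library of this age. Erythroid markers summed to 488.8, 634.2, 153.6, 215.6, 197.9 and 535.3 CPM in KO livers, against 169.3 to 219.5 CPM in WT livers. KO library 6, high in both, had a mean log2 CPM of 0.25 over the 22 G2 and mitosis genes, against -0.111 to 0.655 in WT livers. Stellate cell markers had a KO median of 733.7 CPM, against 428.1 to 581.1 CPM in WT livers. The same values were 594 against 500.5 to 552.8 CPM for endothelial and 147250 against 72620 to 86390 CPM for hepatocyte markers. Each KO range also reached below the WT range, and lymphocyte markers were not high (KO median 5.549 CPM, WT 5.625 to 10.45 CPM). The part of these cells in the cell cycle values was not tested.

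In the wider list, 0 of 113 cell cycle genes passed at 8 weeks by edgeR, and 86 had a fitted change above 0, among them 51 of the 57 genes of mitosis and 21 of the 33 of replication. Of the 113, 16 had an unadjusted p under 0.05. Over all genes tested, 0.0275% passed, 52.6% had a fitted change above 0 and 10.4% had an unadjusted p under 0.05.

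At 20 months no member passed the threshold (0 of 38 tested, edgeR), as with all genes (0%). DESeq2 also called 0. The unadjusted p was under 0.05 for 11 members, beside 5.53% of all genes, and each of these was lower in KO livers. The fitted change was below 0 for 36 of 38 members with a median of -1.72, against 50.5% of all genes and a median of -0.003. The 2 above 0 were Tk1 and Ccnd1.

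The values were widest apart among the 3 WT livers. Mki67 was at 6.72, 2.19 and 1.27 CPM in KO livers, against 83.3, 13.3 and 1.61 CPM in WT livers (log2 fold change -3.26 ± 1.31, adjusted p = 0.821, edgeR). Cdk1 was at 1.69, 0.983 and 0.934 CPM in KO livers, against 10.03, 2.94 and 0.944 CPM in WT livers (-1.95 ± 0.80, adjusted p = 0.821). Tpx2, which activates Aurora A on the spindle, was at 1.08, 0.715 and 0.552 CPM in KO livers, against 15.0, 3.25 and 0.278 CPM in WT livers (-2.98 ± 1.16, adjusted p = 0.821). For the 3 genes WT library 1 was far above the rest, WT library 2 was next, and WT library 3 was within or below the KO range. Cdc6, which loads the replicative helicase, was at 0.564, 0.402 and 0.212 CPM in KO livers, against 4.44, 1.81 and 0.222 CPM in WT livers (-2.46 ± 0.95, adjusted p = 0.821). Its order was the same, apart from WT library 3 and KO library 3 lying close together.

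Further G2 and mitosis genes were also highest in WT library 1. Ccna2 was at 1.605, 0.581 and 0.594 CPM in KO livers, against 13.3, 2.37 and 0.611 CPM in WT livers, and Ccnb1 at 0.2603, 0.134 and 0.1698 CPM in KO livers, against 5.34, 0.929 and 0.167 CPM in WT livers. Cdc20 was at 0.564, 0.626 and 0.891 CPM in KO livers, against 7.84, 1.96 and 0.4999 CPM in WT livers (-2.32 ± 0.90, adjusted p = 0.821, edgeR). In each, WT library 1 was highest, WT library 2 next, and WT library 3 within or below the KO values. Top2a was at 6.07, 2.23 and 1.32 CPM in KO livers, against 47.5, 9.65 and 1.5 CPM in WT livers (-2.60 ± 1.15, adjusted p = 0.821), and Foxm1 at 1.17, 0.223 and 0.1698 CPM in KO livers, against 5.59, 1.45 and 0 CPM in WT livers. Mcm2, at 5.21, 2.73 and 3.52 CPM in KO livers against 11.6, 4.54 and 3.61 CPM in WT livers, had a smaller range. Ccne1 was at 0.738, 2.503 and 1.19 CPM in KO livers, against 3.44, 2.63 and 0.944 CPM in WT livers, and Ccne2 at 0.694, 1.74 and 1.19 CPM in KO livers, against 4.51, 1.45 and 1.22 CPM in WT livers, both with overlapping groups.

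WT library 1 had the highest value of the 6 livers of this age for 37 of the 40 members (92.5%, against 28.7% of all genes), and WT library 3 was below the other WT livers for 36 (90%, against 38.8%). Between WT libraries, Mki67 differed 51.7-fold and Top2a 31.7-fold, while among KO libraries they differed 5.28-fold and 4.62-fold. Without WT library 1 the log2 fold change between KO and WT livers was -1.12 for Mki67, -0.68 for Cdk1 and -1.16 for Tpx2, against the values above, and 32 of 38 members were below 0, with 0 past the threshold by edgeR.

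Outside mitosis the members varied unequally. Between WT libraries the 5 genes of DNA synthesis differed 1.19-fold to 2.73-fold, while in licensing Cdc6 differed 19.99-fold, Mcm5 8.12-fold and Mcm6 5.38-fold, wider than the mitotic genes Aurka (4.59-fold) and Kif20a (4.66-fold). Kif20a shares exon bases with Cdc23, so its counts may include reads of that gene. Pcna was at 19.4, 29.2 and 28.7 CPM in KO livers, against 30.3, 27.2 and 25.4 CPM in WT livers (-0.10 ± 0.19, adjusted p = 0.924, edgeR). E2f1 was at 6.16, 5.67 and 7.597 CPM in KO livers, against 8.502, 6.81 and 6.72 CPM in WT livers (-0.18 ± 0.22, adjusted p = 0.893). Both overlapped between the groups. Tk1 was at 35.3, 42.0 and 27.9 CPM in KO livers, against 21.6, 35.3 and 26.5 CPM in WT livers, and Cdkn1a at 9.63, 7.64 and 18.2 CPM in KO livers, against 35.0, 5.78 and 7.28 CPM in WT livers, with WT library 1 the lowest for Tk1 and the highest for Cdkn1a. Rrm2 was at 8.98, 26.3 and 19.8 CPM in KO livers, against 33.0, 17.03 and 12.1 CPM in WT livers (-0.19 ± 0.47, adjusted p = 0.95). Rrm1, its partner subunit, was at 9.94, 12.8 and 13.8 CPM in KO livers, against 31.4, 15.5 and 14.3 CPM in WT livers (-0.75 ± 0.33, adjusted p = 0.821), and its KO values were all below its WT values, as for 4.6% of all genes.

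**Figure D4:**
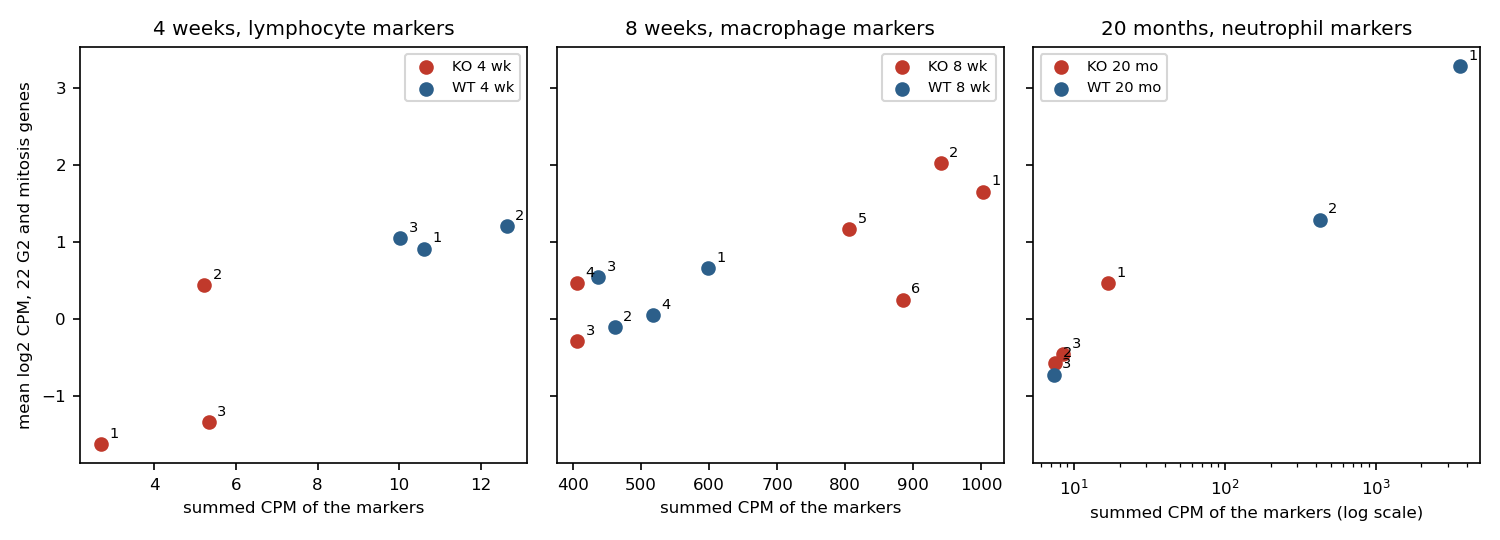
Mean log2 CPM of the 22 G2 and mitosis genes per library against the summed CPM of lymphocyte markers at 4 weeks, macrophage markers at 8 weeks and neutrophil markers at 20 months (log scale), KO in red and WT in blue. At 20 months the WT library with the highest mitotic genes also held 3590 CPM of neutrophil markers, against 7.42 to 16.8 CPM in KO livers. Each panel shows another cell type, and types not shown could overlap. Lymphocyte markers at 8 weeks summed to 4.375 to 6.754 CPM in KO and 5.625 to 10.45 CPM in WT livers. Neutrophil markers at 4 weeks summed to 9.071 to 23.27 CPM in KO and 6.33 to 20.22 CPM in WT livers.

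Neutrophil markers varied with the same livers. The 9 markers summed to 16.8, 7.42 and 8.45 CPM in KO livers, against 3590, 425 and 7.28 CPM in WT livers, with S100a9 at 1709 CPM and Ngp at 755 CPM in WT library 1. Ly6g was at 0 in the 3 KO libraries, and of 8 markers tested 0 passed the threshold by edgeR. Macrophage markers summed to 862.7, 382.8 and 504.2 CPM in KO livers, against 1567, 1076 and 438.1 CPM in WT livers. Stellate cell markers summed to 248.0 to 269.4 CPM in KO livers, against 278.9 to 365.7 CPM in WT livers. Of these 8 markers 0 passed the threshold and 1 had an unadjusted p under 0.05 (edgeR), beside 5.53% of all genes. The part of these cells in the cell cycle values was not tested. In the wider list, 0 of 108 cell cycle genes passed by edgeR and 93 were below 0, among them 47 of 51 genes of mitosis. Over all genes tested, 0% passed and 50.5% were below 0.

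**Figure D5:**
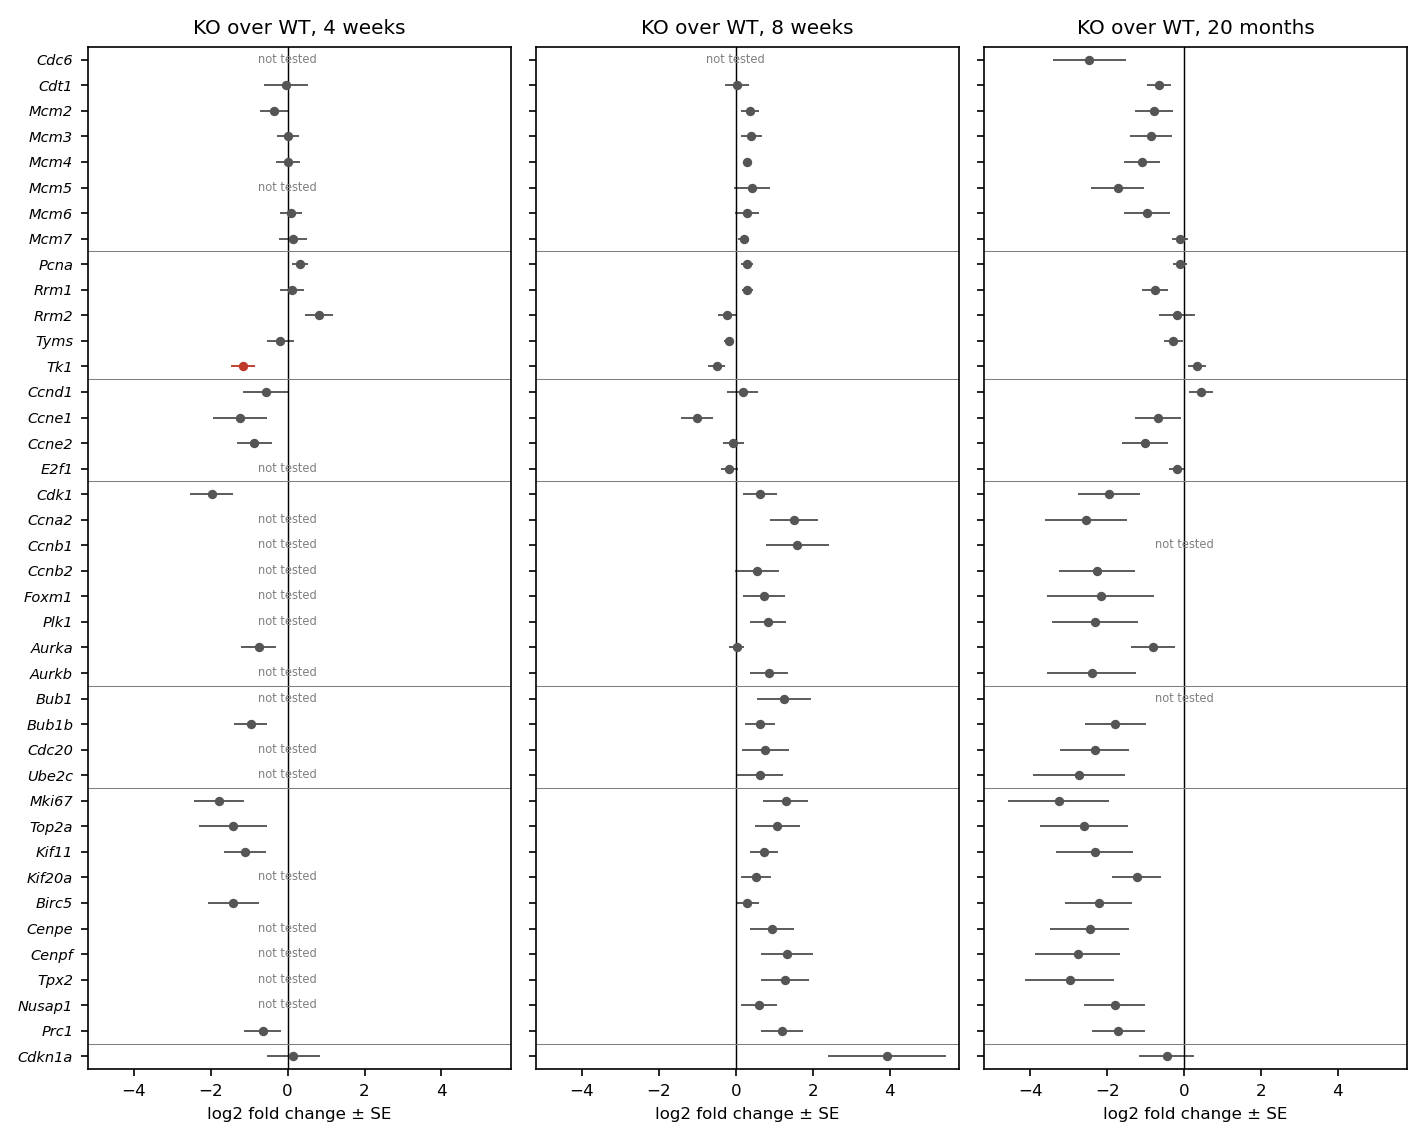
Log2 fold change ± SE of KO over WT livers for the 40 members at 4 weeks, 8 weeks and 20 months, by role, with genes past the threshold in red. Tk1 at 4 weeks is the member past the threshold, and values of the G2 and mitosis genes lie mostly below 0 at 4 weeks, above 0 at 8 weeks and below 0 at 20 months.

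Whether the difference between KO and WT livers varied with age was tested in 1 fit of the 22 libraries. E2f1 was the 1 member of 40 past the threshold in the joint test (adjusted p = 0.0494, edgeR), where 1.62% of all genes were. E2f1 (ENSMUSG00000027490, chr2:154559407-154569892, minus strand) was without overlap and lower in KO livers at 4 weeks and overlapping at the later ages, so that the KO minus WT difference at 20 months exceeded that at 4 weeks by 2.35 ± 0.57 on the log2 scale (adjusted p = 0.0259, where 4.52% of all genes passed). The same comparison of 8 weeks with 4 weeks gave 2.35 ± 0.54 (adjusted p = 0.0574, where 0.328% passed). Over 27 alternatives the joint adjusted p of E2f1 was 0.0177 to 0.148, under the threshold in 5. For Mki67 the joint adjusted p was 0.0982 and for Cdk1 0.124, and between 20 months and 8 weeks 0 members passed, as for all genes (0%). With WT library 3 of 20 months left out, 18 of 40 members passed the joint test, against 6.51% of all genes, and with DESeq2 13 did, against 8.38%.

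Ages were also compared within each genotype, and the steps of KO and WT livers were not tested against each other beyond the joint test above. At 8 weeks relative to 4 weeks, 7 of 40 members rose and 1 fell in KO livers, where 18.9% and 18.8% of all genes did. In WT livers 2 of 38 rose and 12 fell, where 27.5% and 25.7% did. Pcna fell and Ccnd1 rose in both. In KO livers Pcna was at 11.2 to 18.0 CPM with a median of 12.96 at 8 weeks, against 42.7, 36.2 and 50.8 CPM at 4 weeks (-1.72 ± 0.19, adjusted p = 0.000101, edgeR). In WT livers it was at 12.3, 10.6, 11.4 and 12 CPM at 8 weeks, against 30.9, 36.2 and 39.5 CPM at 4 weeks (-1.63 ± 0.11, adjusted p = 2.65e-06). Neither genotype overlapped between the ages.

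In WT livers the mitotic genes Cdk1 (log2 fold change -1.87 ± 0.22), Ccnb1 (-3.06 ± 0.70), Ccnb2 (-1.64 ± 0.41), Cdc20 (-2.09 ± 0.41), Birc5 (-1.17 ± 0.23), Plk1 (-1.59 ± 0.52) and Bub1b (-0.83 ± 0.30) fell at 8 weeks relative to 4 weeks, with adjusted p of 6.49e-05 to 0.0375 by edgeR. Mki67 and Top2a did not pass (0.11 ± 0.24 and -0.01 ± 0.29). The other members that fell at 8 weeks were Mcm7, Tyms, Ccne2 and Cdkn1a, and Rrm2 rose (1.18 ± 0.26). Cdkn1a was at 2.84, 3.52, 2.73 and 8.48 CPM at 8 weeks, against 167, 36.7 and 30.1 CPM at 4 weeks (-4.16 ± 0.63, adjusted p = 0.000373). In KO livers Mki67 (3.13 ± 0.94, adjusted p = 0.0238), Cenpf (4.54 ± 1.24) and E2f1 (2.35 ± 0.46, adjusted p = 0.00305) rose, as did Aurkb, Ccnd1, Mcm4 and Mcm2. As a share of the 40 members tested, these 7 were close to the 18.9% of all genes that rose. Aurkb had 0 counts in the KO livers of 4 weeks, so no fold is given. Cenpf also had 0 counts in a KO library of that age. E2f1 was there near the limit that a count of 0 allows, so the folds of Cenpf and E2f1 are uncertain in size. The median fitted change of all genes in KO livers was 0.11 for this step, and that of the members 0.72.

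At 20 months relative to 8 weeks, 6 of 40 members rose and 9 fell in KO livers, where 23.4% and 22.4% of all genes did. In WT livers 14 of 39 rose and 1 fell, where 27.7% and 26.8% did. E2f1, Mcm7, Pcna, Rrm2 and Tyms rose in both genotypes, and Ccnd1 fell in both. E2f1 averaged 0.404 ± 0.236 CPM at 4 weeks, 2.14 ± 0.5305 at 8 weeks and 6.48 ± 0.999 at 20 months in KO livers (SD, n = 3, 6 and 3). In WT livers it averaged 2.32 ± 1.04, 2.44 ± 0.461 and 7.34 ± 1.003 CPM (SD, n = 3, 4 and 3). The step from 8 weeks to 20 months was 1.58 ± 0.24 in KO livers (adjusted p = 0.00048, edgeR) and 1.54 ± 0.21 in WT livers (adjusted p = 0.000554). For Ccnd1 it was -2.13 ± 0.50 in KO livers (adjusted p = 0.00646) and -2.46 ± 0.26 in WT livers (adjusted p = 0.000177).

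The 9 members that fell in KO livers of 20 months included Mki67 (log2 fold change -2.53 ± 0.81, adjusted p = 0.0275, edgeR), Cenpf (-3.15 ± 0.93), Kif11 (-1.64 ± 0.48), Prc1 (-2.0 ± 0.71) and Ccnb1 (-2.05 ± 0.76), which act in mitosis. As a share of the 40 members tested, these 9 were close to the 22.4% of all genes that fell. Without KO libraries 1 and 2 of 8 weeks, 3 members fell (Ccnd1, Kif11 and Cenpf), where 22.3% of all genes did, with 1 to 13 falling as single libraries were left out. The 14 that rose in WT livers included the helicase subunits Mcm2 (1.28 ± 0.41), Mcm4 (1.36 ± 0.41) and Mcm5 (1.81 ± 0.60) and the mitotic genes Plk1 (3.03 ± 1.00), Aurkb (2.67 ± 0.84), Cdc20 (2.60 ± 0.82) and Birc5 (2.11 ± 0.74). Without WT library 1 of 20 months 6 rose and 4 fell, and the 6 were Pcna, E2f1, Mcm7, Tyms, Mcm4 and Rrm2, where 28.4% of all genes rose and 30% fell. Without WT library 3 of that age 33 rose, where 29.7% of all genes did. In the wider list of cell cycle genes, 13 of 115 rose and 24 fell in KO livers, where 23.4% and 22.4% of all genes did. In WT livers 44 of 113 rose and 10 fell, where 27.7% and 26.8% did.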

How the data were processed

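Liver poly(A) RNA of 22 mice was sequenced, and each library has a deposited table of unnormalised read counts for Ensembl genes. The submitters' processing notes name HISAT2 2.0.4, HTSeq 0.6.1p1 and the build GRCm38. The annotation release and strand setting are not given in the sources used here. Of 47729 gene lines, 47310 matched a symbol, and the 5 summary lines of each table were left out of library sizes and tests (reads outside genes 6.13% to 17.8%, ambiguous 3.8% to 7.3%). No pair of libraries agreed within counting noise (smallest chi-square per degree of freedom 7.65).

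Counts were tested in R 4.3.3 with edgeR 4.0.16 (filterByExpr, TMM scaling, 2-sided quasi-likelihood F-test) within each pair of groups, and genes with a Benjamini-Hochberg adjusted p under 0.05, taken over every gene in the fit, were called. SEs were derived as the absolute log2 fold change over the root of F. The difference among ages was tested in 1 fit of 6 group means. CPM and scores (mean log2 CPM, prior count 2) use TMM factors of all 22 libraries. Alternatives were DESeq2 1.42.0, RLE factors, no low-count filter, 1 fit of all libraries, the replicate number as a block, other ways to form the score (prior count 0.5, its median, without Cdkn1a or the S phase entry genes, without TMM factors), and leaving out libraries. The testing script was tested on simulated data. Genes named were 13 fixed members, those past the threshold between KO and WT livers or among ages, and the member of each role with the smallest adjusted p. The members, lists and tests were chosen with earlier results of these data known. Replicate numbers were not used to pair the samples in the main fits. No file column was left unused.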

Additional observations from a re-analysis of the deposited data

Results flagged for a closer look

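In 46 sets of 4 or 6 libraries, the highest or lowest value stood apart from its group in 6, where chance gives about 1 in 20. Cdkn1a was at 297.2 CPM in KO library 1 of 8 weeks and at 8.48 CPM in WT library 4 of 8 weeks, each the highest of its group. Ccnd1 was at 57.3 CPM in KO library 5 of 8 weeks, the highest of its group. Tk1 was at 8.94 CPM in KO library 1 of 8 weeks, the lowest of its group, where the other KO livers held 18.3 to 21.9 CPM. Cdc6 was at 1.18 CPM in KO library 2 of 8 weeks, the highest of its group. Rrm1 was at 12.99 CPM in WT library 4 of 8 weeks, where the other WT livers held 11.3 to 11.5 CPM. The difference between KO and WT livers varied among the ages for E2f1 (adjusted p = 0.0494, edgeR, joint test over 3 ages), where 1.62% of all genes passed. E2f1 was under the threshold in 5 of 27 alternatives.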

How the results depend on the processing

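At 8 weeks and 20 months 0 members passed the threshold between KO and WT livers under any alternative run. At 4 weeks the count of members lower in KO livers was 1, against 4 with DESeq2, 7 without the low-count filter, 2 in 1 fit of all libraries and 0 to 6 as single libraries were left out. Of all genes, 5.6% were lower in the main fit, 5.39% with DESeq2 and 4.78% without the filter. In WT livers at 8 relative to 4 weeks, 2 rose and 12 fell, against 1 and 5 in 1 fit of all libraries. At 20 months relative to 8 weeks, the WT count of 14 higher was 23 with DESeq2 and 23 in 1 fit of all libraries, and 5 to 33 with 1 library left out, with 1 to 4 lower. Of all genes, 27.7% were higher in the main fit and 29.7% without WT library 3 of 20 months, the setting with 33. In KO livers at 8 relative to 4 weeks, 7 were higher (1 to 9 with 1 library left out) and 1 lower (1 to 2), with 2 lower by DESeq2 and 2 in 1 fit of all libraries. At 20 months relative to 8 weeks, 9 were lower in KO livers, against 14 with DESeq2 and 1 to 13 with 1 library left out. Leaving out KO libraries 1 and 2 of 8 weeks together, an alternative chosen after seeing the data, gave 3 lower at 8 relative to 4 weeks, 3 lower at 20 months relative to 8 weeks, and turned Cdk1 (-0.07) and Foxm1 (-0.12) at 8 weeks. The joint test of ages called 1 member, against 13 with DESeq2, 0 with RLE factors, 0 without the filter and 0 to 18 with 1 library left out. Of all genes it called 1.62%, against 8.38% with DESeq2 and 6.51% without WT library 3 of 20 months, the setting with 18. Where no share of all genes is given for a setting, the change in the members is not set here against the change in all calls. Such a count is therefore not read as a result about the members. The mean score of WT livers at 8 minus 4 weeks was -0.454, and -0.241 without TMM factors.

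Deviations of same-numbered libraries from their group means correlated at -0.284 to 0.4. They were above 0 in every pair between KO and WT livers of 20 months (0.4, 0.068 and 0.393). The same held between WT livers of 20 months and 8 weeks (0.215, 0.033 and 0.272), but not in the other comparisons. The labels do not say whether the numbers pair the samples, and the main fits did not pair them. With the replicate block, counts were 0 lower in KO livers at 4 weeks, 8 higher in WT livers at 20 months, 2 higher in KO livers at 8 weeks, 3 higher and 4 lower in KO livers at 20 months, and 0 in the joint test. The block turned Mcm4 at 4 weeks (-0.01), Ccnd1 (-0.21) and Ccne2 (0.06) at 8 weeks.

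With 1 library left out, log2 fold changes that turned were those of Mcm4 (-0.10 to 0.19), Cdkn1a (-0.23 to 1.39) and Rrm1 (-0.11 to 0.38) at 4 weeks, Ccnd1 (-0.30 to 0.30) and Ccne2 (-0.21 to 0.05) at 8 weeks, and Pcna (-0.19 to 0.06), Rrm2 (-0.52 to 0.33) and Cdkn1a (-0.88 to 0.86) at 20 months, none past the threshold. Where a result changed, the cause was not tested. The 4-week libraries are the shallowest, and 17 members were too low there to be tested with the filter.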
